A study of Mus musculus with 4 samples.

Results

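The 39 genes described here encode subunits, activators, inhibitors and assembly chaperones of the proteasome, measured in the left ventricle of mice. They were chosen by name, as the genes whose symbol in the array's probe annotation is Psma, Psmb, Psmc, Psmd, Psme, Psmf or Psmg followed only by a number, and all 39 had a value on all 4 arrays, out of 14039 such genes in the series. Each was measured by 1 probe. Psmc3ip, an interaction partner with a similar name, was not counted. Psmg1, Psmg2 and Psmg3, whose probes carry older symbols, are given beside the members. Psma5, Psmb3, Psmb11, Psme2, Psme3 and Psmg4 were not analysed here.

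The study asked how loss of STIM1, the calcium sensor of the endoplasmic reticulum, changes the ventricle under pressure overload. Its 4 groups of male C57BL/6 mice were STIM1KO after transverse aortic constriction (TAC), STIM1KO after a sham operation, WT after TAC and WT after a sham operation. Surgery was done at 10 weeks of age, with a wire of 0.3 mm setting the width of the aortic band, and hearts were taken 4 weeks later at 14 weeks. All 4 groups were operated on under anaesthesia with 90 mg/kg ketamine plus 10 mg/kg xylazine, and sham mice had the same operation without the band. Average heart to body weight values, for which the labels give no unit, were 4.9 for STIM1KO TAC, 4.5 for STIM1KO sham, 6.7 for WT TAC and 4.1 for WT sham. The labels do not say how the STIM1KO line was made, in which cells the gene was lost, or whether 1 mouse or a pool gave the RNA of an array. With 1 array a group there was no replication, so all differences given are between single arrays and carry no test and no error between animals.

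The proteasome is the protease that degrades proteins marked with ubiquitin. Its barrel-shaped core particle is built from outer rings of alpha subunits, which form the gate, and inner rings of beta subunits, of which Psmb5, Psmb6 and Psmb7 encode the active sites of the constitutive form. In immune cells and in cells exposed to interferon gamma, the subunits encoded by Psmb8, Psmb9 and Psmb10 take the places of Psmb5, Psmb6 and Psmb7, giving the immunoproteasome, which shapes peptides for presentation on class I molecules. A regulatory particle caps the core. Its base holds the ATPases encoded by the Psmc genes, which unfold substrates, and its lid removes ubiquitin. In heart muscle the proteasome turns over sarcomere and damaged proteins.

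To show the interchangeable catalytic genes beside their values, the 250 bases before the annotated start of 4 of them are printed here from RefSeq promoters of build GRCm38.p6, on the gene's strand. Psmb6 (chr11:70525107-70525356, plus strand) and Psmb5 (chr14:54617996-54618245, minus strand) are constitutive, and Psmb9 (chr17:34187331-34187580, minus strand) and Psmb8 (chr17:34197945-34198194, plus strand) are their immunoproteasome counterparts. Capitals mark matches to the motifs described after the sequences.
Psmb6: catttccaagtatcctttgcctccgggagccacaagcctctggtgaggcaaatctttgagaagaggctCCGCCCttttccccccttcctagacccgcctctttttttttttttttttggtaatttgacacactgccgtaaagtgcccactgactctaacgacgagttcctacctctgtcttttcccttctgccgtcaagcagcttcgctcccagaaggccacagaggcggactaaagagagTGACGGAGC
Psmb9: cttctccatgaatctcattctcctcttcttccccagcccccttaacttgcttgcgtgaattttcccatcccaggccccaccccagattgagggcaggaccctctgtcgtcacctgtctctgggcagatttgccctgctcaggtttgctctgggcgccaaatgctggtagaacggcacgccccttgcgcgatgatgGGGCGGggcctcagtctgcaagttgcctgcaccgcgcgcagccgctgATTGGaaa
Psmb5: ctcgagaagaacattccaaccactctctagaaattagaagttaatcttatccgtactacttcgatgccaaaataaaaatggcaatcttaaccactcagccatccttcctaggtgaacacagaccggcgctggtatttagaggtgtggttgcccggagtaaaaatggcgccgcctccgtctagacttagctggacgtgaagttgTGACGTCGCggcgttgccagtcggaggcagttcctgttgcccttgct
Psmb8: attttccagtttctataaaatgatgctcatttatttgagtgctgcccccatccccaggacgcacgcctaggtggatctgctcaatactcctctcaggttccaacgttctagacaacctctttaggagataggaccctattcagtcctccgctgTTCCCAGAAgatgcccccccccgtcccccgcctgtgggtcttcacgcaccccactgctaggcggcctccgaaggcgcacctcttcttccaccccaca

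The capitals in Psmb6 are a GC box on the other strand and, just before the start, the antioxidant response element core, the motif bound by NRF1, which drives proteasome genes when proteasome activity is low, and by NRF2, which acts under oxidative stress. In Psmb5 they are the same core, in Psmb9 a GC box on the gene's strand and a CCAAT box on the other strand, and in Psmb8 an interferon gamma activated site. The motifs were searched on both strands as TGACNNNGC for the antioxidant response element core, TTCNNNGAA for the interferon gamma activated site, GAAANNGAAA for the interferon-stimulated response element core, CCAAT, and GGGCGG for the GC box, each counted on its own where matches overlap. Of the 39 members, 32 had a promoter in the table. The antioxidant response element core was found in 5 of the 32, against 11.5% of all 27025 genes with a promoter. The GC box was found in 20 of 32 (35.4% of all genes), the CCAAT box in 11 (37.5%), the interferon-stimulated core in 2, Psmd4 and Psmd9 (3.46%), and the interferon gamma activated site in 1, Psmb8 (8.13%). A match describes letters and is no evidence of binding.

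The other 3 members with the antioxidant response element core are subunits or chaperones of the regulatory particle, shown in short windows with the core in capitals. They lie at chr14:45329585-45329617 (Psmc6), chr5:123228147-123228179 (Psmd9) and chr11:107479278-107479301 (Psmd12), all on the plus strand of GRCm38.p6.
Psmc6: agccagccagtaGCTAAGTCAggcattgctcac
Psmd9: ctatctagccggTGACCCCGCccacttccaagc
Psmd12: tctGCTGTGTCAcatttgcccccc

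Of the 23473 probes, between 21115 and 21782 had a value on an array, and values were quantile normalized on the log2 scale. Stim1 itself had a normalized intensity of 13.8 on STIM1KO TAC, 20.7 on STIM1KO sham, 33.9 on WT TAC and 41.6 on WT sham. Both STIM1KO arrays were below both WT arrays, and the labels do not say whether the probe lies in the deleted part. Of 10 cardiomyocyte markers, 9 were measured. For 8 of them the intensity was at least 1124 on every array, and the Ryr2 probe was dim at 2.77 to 5.57, while the atrial marker Myl7 stayed between 8.10 and 11.8. Another atrial marker, Bmp10, ran from 85.4 on WT sham to 177 on STIM1KO TAC. The STIM1KO TAC array stood apart from the rest. Across the 7020 genes at or above the median level (an intensity of 29.3) it correlated at 0.963 to 0.974 with the other arrays, which correlated at 0.987 to 0.990 with each other. From 50 genes with 2 probes above this level, the error SD of 1 probe's log2 difference was 0.27 between WT TAC and WT sham, 0.42 between STIM1KO TAC and STIM1KO sham, 0.29 between the sham arrays and 0.37 between the TAC arrays.

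Most proteasome genes were even across the 4 arrays. Of the 39 members, 38 were at or above the median level. The exception was Psma8, the germline alpha subunit. The other members lay between percentile 61.9 (Psmd9) and 98.6 (Psmb5) of mean level, and no set of genes matched to them in level was compared. Between its highest and lowest array a member typically differed by a log2 range of 0.34 (median of 39, 1.27-fold), against 0.55 (1.47-fold) for all genes measured and 0.45 (1.36-fold) for genes at or above the median level. The range reached 1.5-fold for 8 of 39 members, or 20.5%, against 46.1% of all genes and 30.9% of those at or above the median level. STIM1KO TAC was the highest array for 16 members (41.0%, against 36.8% of all genes) and the lowest for 12 (30.8%, against 33.7%).

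Counted at 1.5-fold, 10 of 39 members passed in at least 1 of 5 comparisons, and 6 in at least 1 of the 4 comparisons between single arrays. The matching totals over all genes were not counted, so these totals do not say whether members passed more or less often. Between WT TAC and WT sham, 0 members were higher and 0 lower at 1.5-fold, where 4.78% of all genes were higher and 4.94% lower. Between STIM1KO TAC and STIM1KO sham, 4 members were higher (Psmb4, Psmb6, Psmb7 and Psma8) and 1 lower (Psma1), where 12.0% of all genes were higher and 10.9% lower. Between STIM1KO sham and WT sham the counts were 0 and 0, against 5.05% of all genes higher and 6.67% lower. Between STIM1KO TAC and WT TAC, 4 members were higher (Psmb4, Psmb6, Psmd9 and Psma8) and 0 lower, against 11.4% in each direction. The count of 0 lower holds with quantile normalization, and there were 4 higher and 4 lower with each array centred on its median, and 4 higher and 3 lower with deposited values. In each of these 4 comparisons, with quantile-normalized values, the share of members past 1.5-fold was at or below the share of all genes. Of genes at or above the median level, where 38 of the members lie, 2.85%, 14.4%, 3.96% and 14.5% passed in either direction, in the same order of comparisons.

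The difference of responses, the STIM1KO difference between TAC and sham minus the WT one, uses all 4 arrays. Here 6 members were higher at 1.5-fold (Psmb4, Psmb6, Psmb7, Psmc6, Psmd8 and Psma8) and 3 lower (Psma1, Psma2 and Psmd1), where 14.4% of all genes were higher and 11.4% lower, and 14.1% of those at or above the median level passed in either direction. With median centring 4 were higher and 4 lower, and with deposited values 4 and 3: Psmb7 and Psmd8 no longer passed under either, and Psmd4 passed when centred, at -0.65. At 2-fold, 2 members were higher between the STIM1KO arrays (Psmb6 and Psma8) and 0 lower, against 3.47% and 2.33% of all genes. Between the TAC arrays the same 2 were higher and 0 lower, against 2.71% and 2.67%. In the difference of responses 3 were higher (Psmb4, Psmb6 and Psma8) and 0 lower, against 5.16% and 3.43%. The comparisons share arrays with each other, so their counts are not independent. The median over the 39 members was -0.051 between the WT arrays and 0.074 between the STIM1KO arrays. Between genotypes it was -0.0024 after sham and 0.10 after TAC. For the difference of responses it was 0.069. All 5 medians lay near 0, as did those of all genes (-0.019, 0.011, -0.0053, 0.027 and 0.0044), and the sign of each turned when every array was centred on its median.

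**Figure D1:**
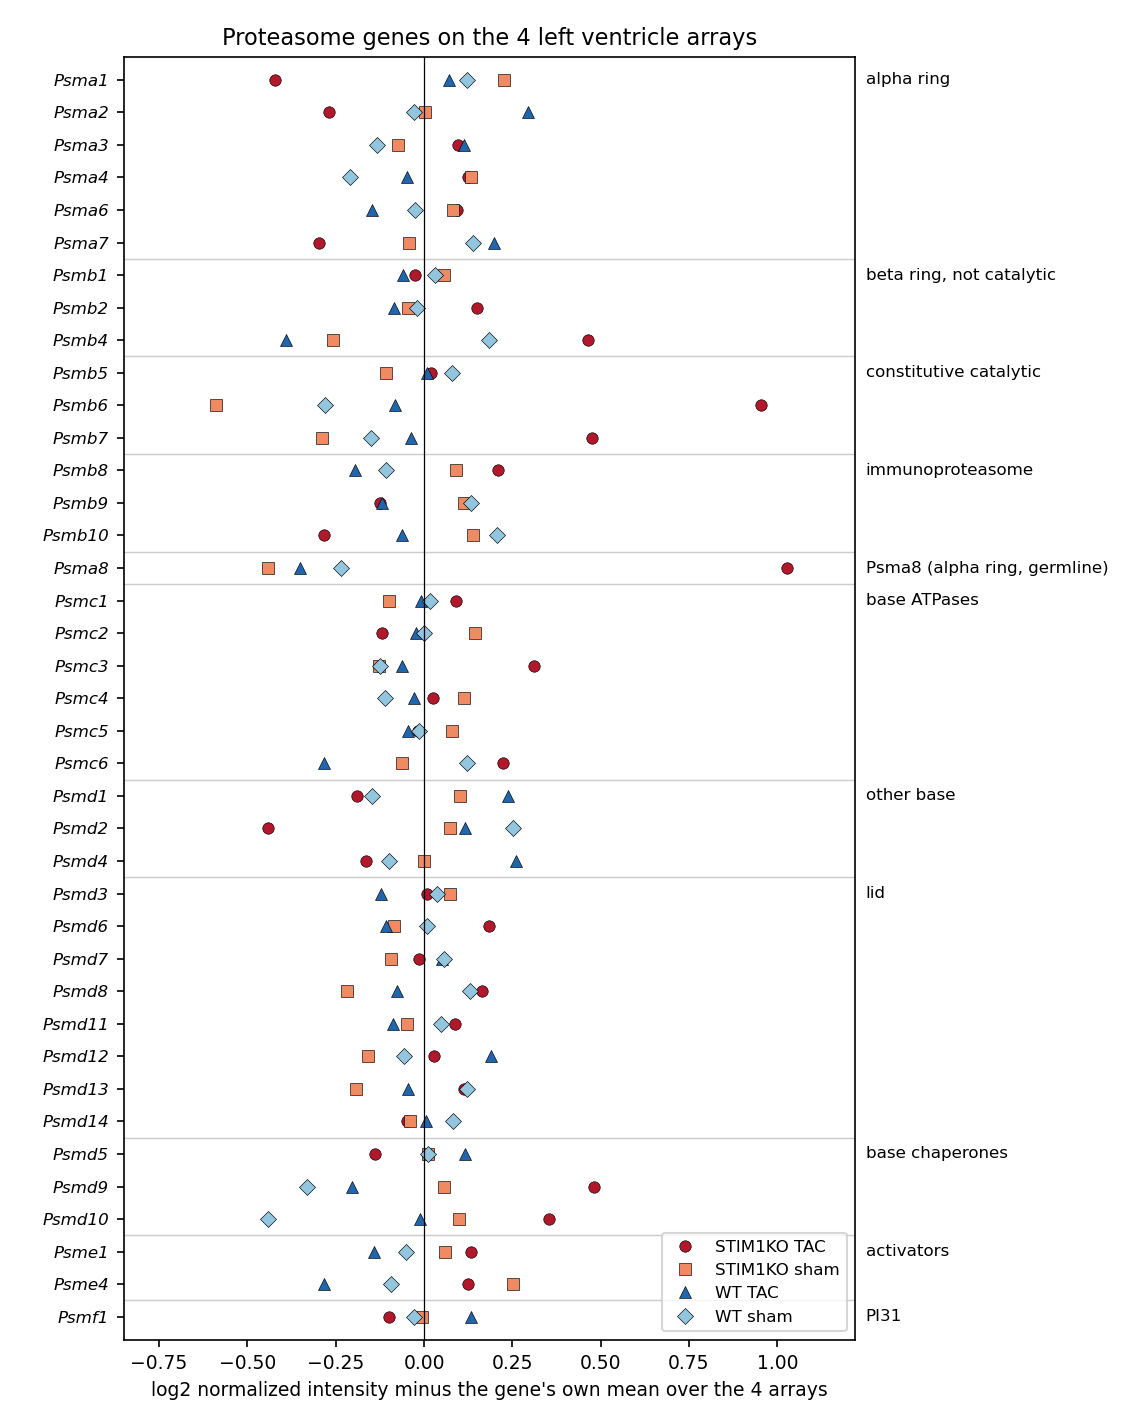
Each row is 1 of the 39 proteasome genes, grouped by role, and each point is 1 array, placed by its log2 normalized intensity minus the gene's own mean over the 4 arrays. The STIM1KO TAC point lies far right for Psmb6 and Psma8 and right for Psmb4, Psmb7 and Psmd9, and it lies left for Psma1, Psma2, Psma7 and Psmd2.

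Among members at or above the median level, the constitutive beta genes Psmb6 and Psmb4 had the widest log2 ranges, 1.54 and 0.85. Psmd9 (0.81) and Psmd10 (0.79) came next, ahead of Psmb7 (0.76). Psmb1, also a constitutive beta gene, had the narrowest range of all members, 0.11. Psmb6, which encodes the beta 1 subunit with caspase-like activity, had a normalized intensity of 3079.6 on STIM1KO TAC, 1058 on STIM1KO sham, 1501 on WT TAC and 1309 on WT sham. STIM1KO TAC stood above the other 3 arrays, and STIM1KO sham was the lowest. The log2 difference was 1.54 (2.91-fold) between the STIM1KO arrays, with 13 of the 7020 genes at or above the median level higher, 1.04 between the TAC arrays and 0.20 between the WT arrays.

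Psmb7 encodes the beta 2 subunit with trypsin-like activity. Its intensities were 739 on STIM1KO TAC, 435 on STIM1KO sham, 518 on WT TAC and 479 on WT sham. As for Psmb6, STIM1KO TAC was the highest and STIM1KO sham the lowest array. The difference was 0.76 (1.70-fold) between the STIM1KO arrays and 0.51 between the TAC arrays. Psmb5, the beta 5 subunit with chymotrypsin-like activity and the main target of bortezomib, did not share this. It stood at 3359.9 on STIM1KO TAC, 3072 on STIM1KO sham, 3334 on WT TAC and 3498 on WT sham. Its log2 difference was 0.13 between the STIM1KO arrays and at most -0.19 in size in the other 3, the value between the sham arrays.

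Among the beta subunits without an active site, Psmb4 differed in opposite directions in the 2 genotypes. Its intensity was 3643 on STIM1KO TAC, 2209 on STIM1KO sham, 2017 on WT TAC and 3000.4 on WT sham. Both STIM1KO TAC and WT sham were high, and WT TAC and STIM1KO sham were low. The log2 difference was 0.72 (1.65-fold) between the STIM1KO arrays and -0.57 between the WT arrays, just short of 1.5-fold, which gave 1.29 for the difference of responses. Between the sham arrays it was -0.44. Psmb1 and Psmb2 were even. Psmb1 ranged from 2727 on WT TAC to 2952 on STIM1KO sham, and Psmb2 from 1495 on WT TAC to 1759.9 on STIM1KO TAC.

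Over the 6 constitutive beta genes, 5 were above 0 between the STIM1KO arrays with a median of 0.46, and all 6 between the TAC arrays with a median of 0.37. Of all genes, 7144 of 14039 were above 0 in the first of these and 7320 in the second. The error SD of 1 probe was 0.42 in the first and 0.37 in the second. With each array centred on its median the 2 medians were 0.38 and 0.26, with 5 and 4 of 6 above 0. Between the WT arrays the median was -0.068, which centring turned to 0.014.

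**Figure D2:**
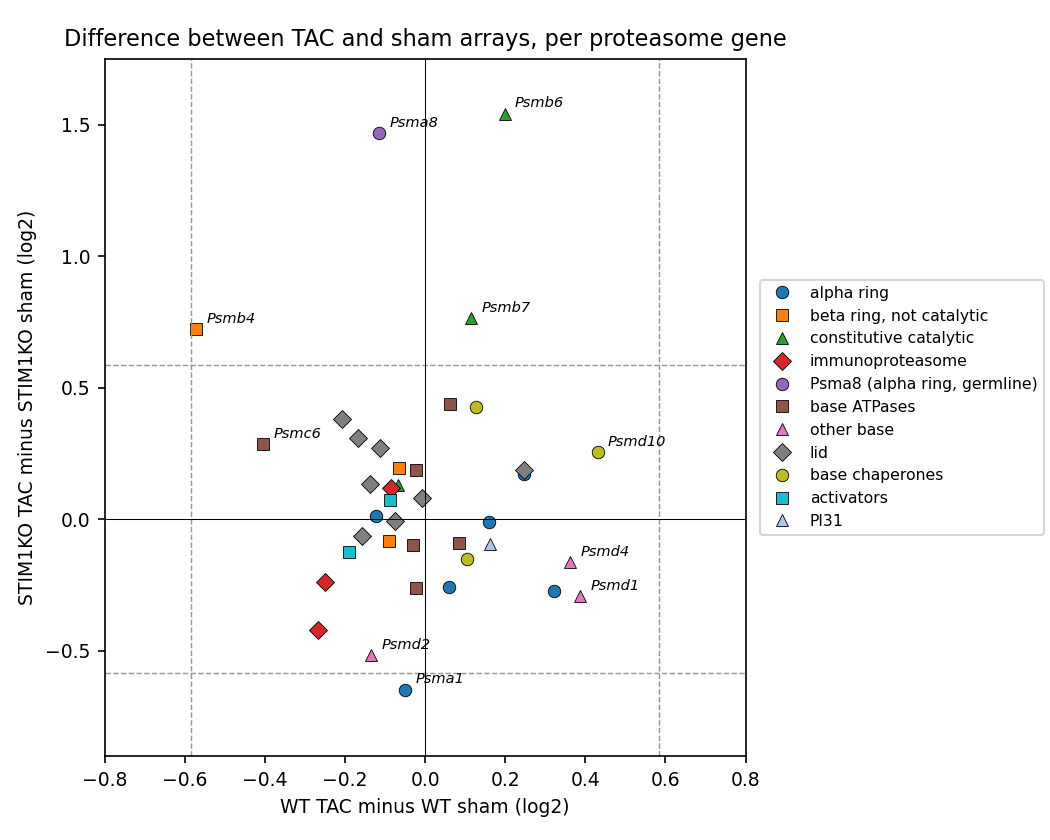
Each point is 1 proteasome gene, with the log2 difference of STIM1KO TAC minus STIM1KO sham on the vertical axis and of WT TAC minus WT sham on the horizontal axis, and dashed lines at 1.5-fold. No gene passes 1.5-fold along the horizontal axis, and Psmb6, Psma8, Psmb7 and Psmb4 pass it upwards and Psma1 downwards along the vertical one.

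The 3 immunoproteasome genes did not pass 1.5-fold in any comparison, against 2.85% to 14.5% of genes at or above the median level in each. Psmb8, which encodes beta 5i, had intensities of 304 on STIM1KO TAC, 280.03 on STIM1KO sham, 229.7 on WT TAC and 244 on WT sham. Both STIM1KO arrays were above both WT arrays, by a log2 difference of 0.40 after TAC and 0.20 after sham. Psmb9, which encodes beta 1i, stood at 134 on STIM1KO TAC, 158 on STIM1KO sham, 135 on WT TAC and 160.5 on WT sham. Here both TAC arrays were below both sham arrays, with log2 differences of -0.24 in STIM1KO and -0.25 in WT. Psmb10, which encodes beta 2i, ordered the arrays in the same way, with 527 on STIM1KO TAC, 706 on STIM1KO sham, 615 on WT TAC and 741 on WT sham. It differed by -0.42 between the STIM1KO arrays and -0.27 between the WT arrays. The median of the 3 was -0.24 between the STIM1KO arrays and -0.25 between the WT arrays, each below 0 with quantile-normalized, median-centred and deposited values, and 1 of 3 and 0 of 3 genes were above 0. All 6 of these differences were no larger than the error SD of 1 probe in their comparison.

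Set against the subunit whose place it takes, the immunoproteasome genes fell into 2 patterns. The ratio of Psmb9 to Psmb6 was 3.43-fold lower on STIM1KO TAC (log2 -1.78), set against STIM1KO sham, and 1.36-fold lower on WT TAC than on WT sham (-0.45). For Psmb10 to Psmb7 it was 2.27-fold lower (-1.19) between the STIM1KO arrays and 1.30-fold lower (-0.38) between the WT arrays. For Psmb8 to Psmb5 the same 2 changes were -0.011 and -0.017, while the ratio was 1.31-fold higher in STIM1KO than in WT both after TAC (0.39) and after sham (0.39). Within the first pair, Psmb6 differed by 1.04 and Psmb9 by -0.0079 between the TAC arrays. The median immunoproteasome difference minus the median constitutive catalytic difference was -1.003 between the STIM1KO arrays and -0.36 between the WT arrays. It was -0.52 between the TAC arrays and 0.17 between the sham arrays. Its sign was kept with median centring and with the offset. Deposited values give the same result as centring, because a shift of a whole array cancels. The mean over probes and the filter at the median level could not change it. A ratio within an array shows unequal change between 2 probes and does not give amounts of either protein.

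**Figure D3:**
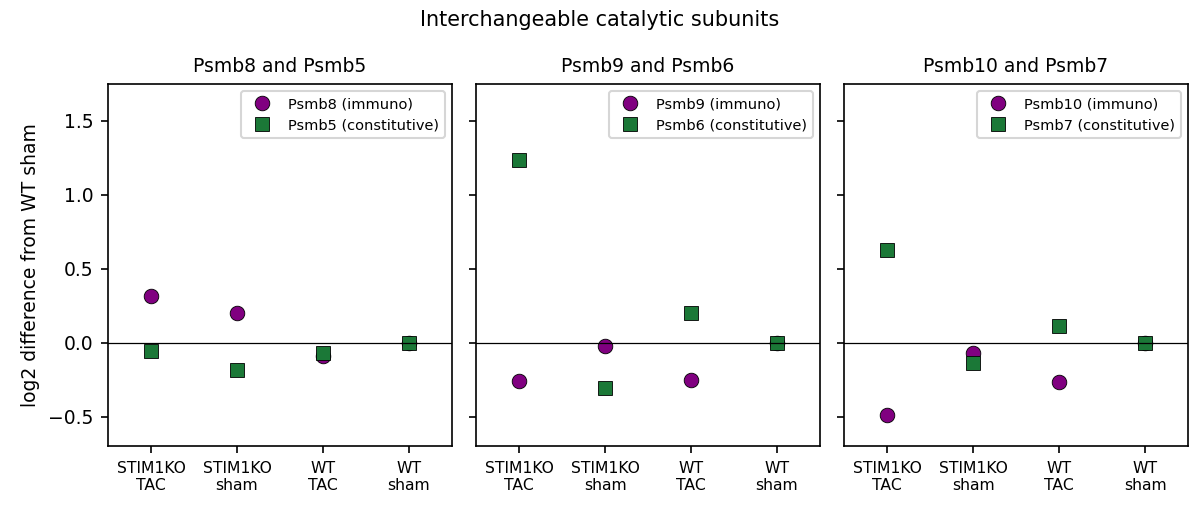
Each panel shows an immunoproteasome gene and the constitutive gene whose place its product takes, as the log2 difference of each array from WT sham, which is 0 by definition. Psmb6 and Psmb7 are far above their counterparts on STIM1KO TAC, while Psmb8 lies above Psmb5 on both STIM1KO arrays.

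Psmb8 and Psmb9 lie in the major histocompatibility region of chromosome 17 beside Tap1 and Tap2, which encode the transporter that carries peptides into the endoplasmic reticulum. Tap1 had 16.7 on STIM1KO TAC, 16.7 on STIM1KO sham, 12.6 on WT TAC and 16.2 on WT sham. Tap2 had 78.2 on STIM1KO TAC, 83.8 on STIM1KO sham, 74.4 on WT TAC and 82.9 on WT sham, so that, as for Psmb9, both TAC arrays were below both sham arrays, with log2 differences of -0.10 in STIM1KO and -0.16 in WT. Of 12 class I presentation genes, 10 were measured, and 2 were higher at 1.5-fold between the STIM1KO arrays (Nlrc5 and Erap1), 2 between the WT arrays (Nlrc5 and Canx) and 0 between genotypes, with 0 lower in these 4 comparisons. Of all genes, 12.0% were higher between the STIM1KO arrays and 4.78% between the WT arrays. Between genotypes 5.05% were higher after sham and 11.4% after TAC, and 4.94% to 11.4% were lower in the 4 comparisons. The list had a median of -0.011 between the STIM1KO arrays, 0.029 between the WT arrays, 0.086 between the sham arrays and 0.071 between the TAC arrays. B2m, the light chain of class I molecules, was at 5005 on STIM1KO TAC, 4190.01 on STIM1KO sham, 3683 on WT TAC and 3778 on WT sham. Canx, a chaperone of class I heavy chains, differed by 0.41 between the STIM1KO arrays and 0.61 between the WT arrays. The class I transactivator Nlrc5 was dim at 2.49 to 6.23, so its WT difference of 1.32 rests on low signal.

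Of 16 listed interferon response genes, 12 were measured. At 1.5-fold, 1 was higher and 2 were lower between the STIM1KO arrays, and 0 passed between the WT arrays. That is 3 of 12 between the STIM1KO arrays, against 22.9% of all genes, and 0 of 12 between the WT arrays, against 9.72%. Between the sham arrays 1 was higher (Ifit1, at 9.72 or less on every array) and 0 lower, and between the TAC arrays 0 were higher and 1 lower (Usp18), each 8.33% of the list, against 11.7% and 22.8% of all genes. The list had 3 above 0 and a median of -0.15 between the STIM1KO arrays, and 4 above 0 and a median of -0.11 between the WT arrays. Irf1, a transcription factor that induces immunoproteasome genes, had 75.9 on STIM1KO TAC, 93.6 on STIM1KO sham, 86.2 on WT TAC and 96.6 on WT sham. Both TAC arrays were below both sham arrays for Irf1, which was singled out after its values were seen. Usp18, which removes the ubiquitin-like protein ISG15, differed by -0.69 between the STIM1KO arrays and -0.29 between the WT arrays, and Ifit1 and Oas1a, both interferon-induced, by -0.90 and 0.70 between the STIM1KO arrays.

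Leukocytes carry immunoproteasome, so their markers stand beside these values. The summed intensity of 17 of 18 macrophage markers was 3370.5 on STIM1KO TAC, 2711 on STIM1KO sham, 3186 on WT TAC and 3125 on WT sham. For 11 of 14 lymphocyte and NK cell markers it was 106, 119.9, 112 and 127 in the same order, with T cell Cd3e near the bottom of the scale at 1.48 to 2.97. No lymphocyte marker exceeded 29.3 on any array. Of the macrophage markers, 9 of 17 were above 0 between the STIM1KO arrays and 7 of 17 between the WT arrays. For 12 endothelial markers the sums were 3335, 3317, 4350 and 4722, and for 10 fibroblast markers 8346, 11455, 12328 and 14817. The lymphocyte and fibroblast sums were lower on each TAC array than on the sham array of its genotype, and the macrophage sums were higher. A sum leans on its brightest markers. For fibroblasts these were Gsn (4373 on STIM1KO TAC, 6332 on STIM1KO sham) and Dcn (1433 and 2406). Of the 10 fibroblast markers, 2 were above 0 between the STIM1KO arrays, with Col1a2 at 1.30 and a list median of -0.049. Between the WT arrays 3 were above 0, with a median of -0.16. The part of these cells in the immunoproteasome values was not tested. In whole ventricle, fewer cells of a type and less RNA per cell cannot be told apart.

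In the alpha ring, 3 of 6 genes were lowest on STIM1KO TAC. So were 33.7% of all genes and 36.2% of those at or above the median level. Psma1 had intensities of 649 on STIM1KO TAC, 1017 on STIM1KO sham, 913 on WT TAC and 946 on WT sham. STIM1KO TAC was the low array and the other 3 lay close together. It differed by -0.65 (1.57-fold lower) between the STIM1KO arrays and -0.49 between the TAC arrays. Psma2 was at 587 on STIM1KO TAC, 709 on STIM1KO sham, 867 on WT TAC and 694 on WT sham, highest on WT TAC and lowest on STIM1KO TAC, with -0.56 between these 2 arrays. Psma7, the alpha 4 subunit, had 775 on STIM1KO TAC, 926 on STIM1KO sham, 1094 on WT TAC and 1049 on WT sham. It was again lowest on STIM1KO TAC, with a log2 difference of -0.50 against WT TAC.

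Psma3, Psma4 and Psma6 did not share this. Psma3 ran from 476 on WT sham to 565 on WT TAC. Psma4 was at 982 on STIM1KO TAC, 989 on STIM1KO sham, 871 on WT TAC and 780.2 on WT sham, and so 0.34 higher on STIM1KO sham than on WT sham. Psma6 lay between 1589 on WT TAC and 1881 on STIM1KO TAC. Over the 6 alpha genes the median was -0.25 between the TAC arrays with 2 above 0, -0.13 between the STIM1KO arrays with 2 above 0, and 0.11 between the WT arrays with 4 above 0. Of all 14039 genes, 7320, 7144 and 6640 were above 0 in the same order of comparisons. The alpha medians kept their signs with median centring and with deposited values. The alpha subunit Psma8, which replaces Psma7 in the testis, was dim, with 12.5 on STIM1KO TAC, 4.50 on STIM1KO sham, 4.79 on WT TAC and 5.19 on WT sham. Only STIM1KO TAC stood out, by 1.47 against STIM1KO sham, or 0.84 once an offset of 5.49 intensity units was added before log2. Its deposited intensities on the other 3 arrays, 4.36 on STIM1KO sham, 4.84 on WT TAC and 5.13 on WT sham, were each below that array's first quartile, which was 5.43 to 5.64.

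In the regulatory particle 0 of the 6 base ATPases passed 1.5-fold between single arrays. In these comparisons 2.85% to 14.5% of genes at or above the median level passed, so a count of 0 among 6 genes says little. Psmc3 had 3458 on STIM1KO TAC, 2552 on STIM1KO sham, 2668 on WT TAC and 2554 on WT sham, highest on STIM1KO TAC, with a difference of 0.44 between the STIM1KO arrays. Psmc6 had 612 on STIM1KO TAC, 502 on STIM1KO sham, 430.1 on WT TAC and 569.8 on WT sham, lowest on WT TAC. It differed by -0.41 between the WT arrays and 0.29 between the STIM1KO arrays, so that the difference of responses was 0.69. Psmc1, Psmc2, Psmc4 and Psmc5 stayed within a log2 range of 0.26 over the 4 arrays. The median of the 6 was 0.050 between the STIM1KO arrays and -0.023 between the WT arrays, and both signs turned with median centring.

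The 3 large or ubiquitin-binding base subunits were lower on STIM1KO TAC than on the other TAC array, unlike the constitutive beta genes. Psmd1 and Psmd2 encode the scaffolds of the base, and Psmd4 the ubiquitin receptor Rpn10. Psmd1 had 514 on STIM1KO TAC, 629 on STIM1KO sham, 691 on WT TAC and 529 on WT sham. Psmd4 had 483 on STIM1KO TAC, 541 on STIM1KO sham, 649 on WT TAC and 505 on WT sham. Both were highest on WT TAC, by 0.39 and 0.36 against WT sham, and lower on STIM1KO TAC than on WT TAC, with log2 differences of -0.43 and -0.42. Psmd2 stood at 399 on STIM1KO TAC, 572 on STIM1KO sham, 588 on WT TAC and 646 on WT sham, lowest on STIM1KO TAC, with log2 differences of -0.52 against STIM1KO sham and -0.56 against WT TAC. These last 2 passed 1.5-fold with each array centred on its median, at -0.62 and -0.65. All 3 genes were below 0 between the STIM1KO arrays and between the TAC arrays with quantile-normalized, median-centred and deposited values.

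The lid held no member past 1.5-fold between single arrays, against 2.85% to 14.5% of genes at or above the median level per comparison. Its 8 genes include Psmd14, the deubiquitinase that frees substrates of their ubiquitin chains, which ran from 342 on STIM1KO TAC to 375 on WT sham. Psmd8 was the widest, with 779.8 on STIM1KO TAC, 599 on STIM1KO sham, 659 on WT TAC and 762 on WT sham. It was lowest on STIM1KO sham, with a log2 difference of -0.35 against WT sham, and the difference of responses was 0.59. Psmd13 was also lowest on STIM1KO sham, with 216 on STIM1KO TAC, 175 on STIM1KO sham, 194 on WT TAC and 218 on WT sham, and -0.32 between the sham arrays. Psmd12 was highest on WT TAC at 694, against 584 on WT sham, a difference of 0.25. Psmd3, Psmd6, Psmd7 and Psmd11 stayed within a log2 range of 0.29. Between the sham arrays 7 of the 8 lid genes were below 0, with a median of -0.11, and 7123 of 14039 genes were below 0 in that comparison.

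**Figure D4:**
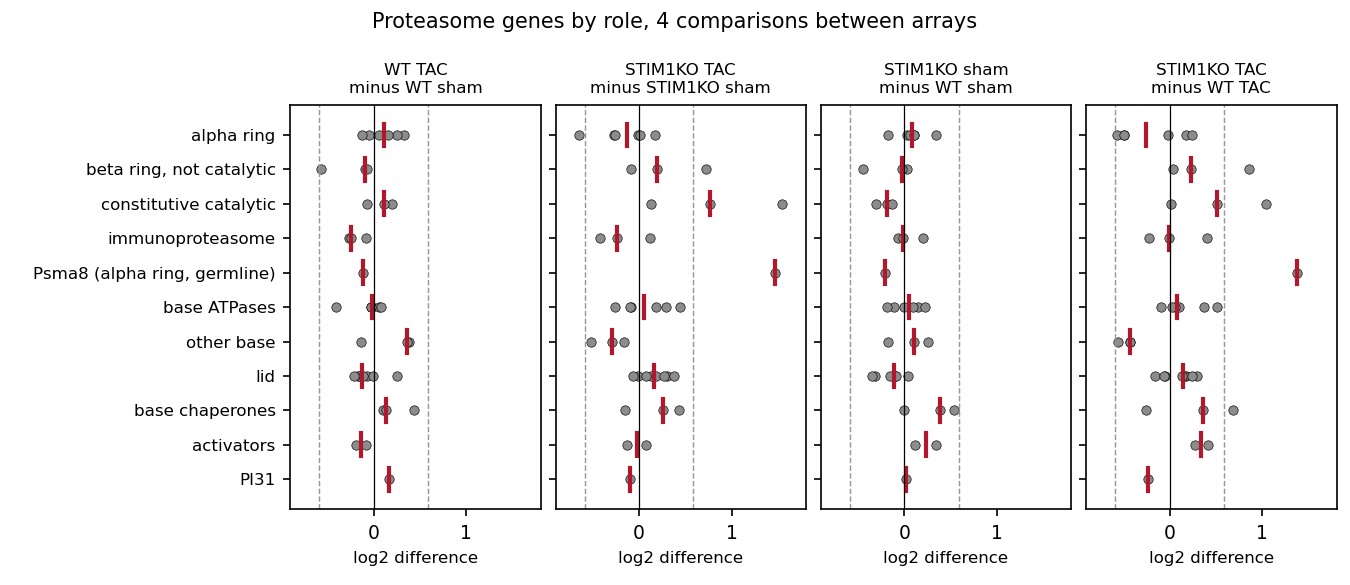
Each grey point is 1 proteasome gene in its role, each red bar the median of that role, and each panel a comparison between 2 arrays on the log2 scale, with dashed lines at 1.5-fold. No point passes the lines in the panels of WT TAC minus WT sham and STIM1KO sham minus WT sham, and in both panels with STIM1KO TAC the median of the constitutive catalytic genes lies right of 0 and that of the other base genes left of it.

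Of the 3 chaperones that assemble the base, 2 ranked the arrays alike. Psmd9 had intensities of 72.6 on STIM1KO TAC, 54.0 on STIM1KO sham, 45.1 on WT TAC and 41.3 on WT sham, and Psmd10, also known as gankyrin, 102 on STIM1KO TAC, 85.7 on STIM1KO sham, 79.5 on WT TAC and 59.0 on WT sham. In both genes the order from high to low was STIM1KO TAC, STIM1KO sham, WT TAC and WT sham. Psmd9 differed by 0.69 (1.61-fold) between the TAC arrays and 0.39 between the sham arrays. For Psmd10 these were 0.36 and 0.54, with 0.43 between the WT arrays, the largest WT difference upwards of any member. Psmd5, the remaining chaperone, ran from 70.0 on STIM1KO TAC to 83.6 on WT TAC and did not share the order.

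Activators bind the ends of the core in place of the regulatory particle. Psme1, which encodes the alpha subunit of the interferon-inducible activator PA28, had 1525 on STIM1KO TAC, 1448 on STIM1KO sham, 1261 on WT TAC and 1340.3 on WT sham, and differed by at most 0.27, the value between the TAC arrays. Psme4, which encodes the nuclear activator PA200, stood at 181 on STIM1KO TAC, 198 on STIM1KO sham, 137 on WT TAC and 156 on WT sham. Both STIM1KO arrays were above both WT arrays, by 0.41 after TAC and 0.35 after sham. Psmf1, which encodes PI31, an inhibitor of the core in the test tube, ran from 79.5 on STIM1KO TAC to 93.4 on WT TAC.

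Outside the 39, the chaperones that build the core gave mixed values. Psmg1 had 359 on STIM1KO TAC, 264 on STIM1KO sham, 207 on WT TAC and 248 on WT sham, and differed by 0.80 between the TAC arrays. Its partner Psmg2 ran from 217 on STIM1KO sham to 245 on WT sham. Psmg3 had 100.2 on STIM1KO TAC, 131 on STIM1KO sham, 139 on WT TAC and 129 on WT sham, lowest on STIM1KO TAC, with a log2 difference of -0.48 against WT TAC. Pomp, which guides the assembly of the beta ring, had 1897 on STIM1KO TAC, 1518 on STIM1KO sham, 1377 on WT TAC and 1397 on WT sham, a difference of 0.32 between the STIM1KO arrays and 0.46 between the TAC arrays. Of 11 further genes of the proteasome and its partners, Pomp included, 10 were measured, and 0 were higher and 0 lower at 1.5-fold between the STIM1KO arrays, against 12.0% and 10.9% of all genes. Between the TAC arrays 0 were higher and 1 lower, against 11.4% in each direction. This was Txnl1, a thioredoxin-like partner of the regulatory particle, at -0.69. Usp14, a deubiquitinase of the base, had 70.7 on STIM1KO TAC, 96.1 on STIM1KO sham, 99.3 on WT TAC and 117 on WT sham, lowest on STIM1KO TAC as Psmd2 was.

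Nfe2l1 encodes NRF1, the transcription factor that raises proteasome genes together, and it was even between TAC and sham. It had 742 on STIM1KO TAC, 758 on STIM1KO sham, 628 on WT TAC and 627 on WT sham, a difference of -0.030 between the STIM1KO arrays and 0.24 between the TAC arrays. The list of 8 genes used here holds this pathway together with Keap1 and Nfe2l2, which encodes NRF2. Between the WT arrays 1 of the 8 was higher at 1.5-fold, Nfe2l2 at 0.61. Between the STIM1KO arrays 1 was lower, Ddi2, the protease that activates NRF1, at -0.91. Its intensity was dim, at 4.53 on STIM1KO TAC and 8.51 on STIM1KO sham. Between the TAC arrays 0 were higher and 1 lower, again Ddi2, at -1.38. Of all genes, 4.78% were higher between the WT arrays, 10.9% lower between the STIM1KO arrays and 11.4% lower between the TAC arrays. The 5 members whose promoters hold the antioxidant response element core, printed earlier, were all above 0 between the STIM1KO arrays, at 1.54 for Psmb6, 0.43 for Psmd9, 0.29 for Psmc6, 0.19 for Psmd12 and 0.13 for Psmb5. Between the WT arrays 3 of the 5 were above 0, and between the TAC arrays 4. This grouping was made after the values were seen, and of all 39 members 21 were above 0 between the STIM1KO arrays.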

How the data were processed

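RNA from the left ventricle was hybridised to 4 arrays read in a single channel, 1 per group. The authors deposited 1 intensity per probe and array on a linear scale, with array medians near 20.0; no label or file header names the background correction or scaling. Of 23473 probes, 19607 had a value on all 4 arrays. These were taken to log2 and quantile normalized (Python 3.11.15, numpy 2.4.6, pandas 2.3.3). GEO's platform annotation gives 16631 probes 1 symbol, 0 several and 6842 none, and 3883 symbols were updated through RefSeq genes; a gene is its brightest probe. Comparisons are log2 differences between arrays, counted at 1.5-fold. Most counts within a comparison stand beside the share of all genes, and totals over several comparisons do not. The number of arrays limits the precision: with 1 array per group no test or p-value was made. A run on simulated data, with noise set by hand, required only that the median log2 difference of planted changes came back. It set no requirement on the 1.5-fold counts. Values on all 4 arrays are given for Psmb5 to Psmb10, Psme1, the 4 members with the largest difference each way in each comparison and members past 1.5-fold, and other members by range; other lists name up to 4 genes with the largest differences, plus Pomp, Nfe2l1, Tap1, Tap2, Trim63 and Fbxo32. B2m, Irf1, Usp14 and Psmc3 were added for their roles or level after values were seen. Members and lists were chosen with earlier results of these data known. Alternatives were median centring, deposited values, an offset of 5.49, a filter at the median level, the mean over probes, a 2-fold threshold and, chosen after seeing the data, adding 3 genes with older symbols.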

Additional observations from a re-analysis of the deposited data

Results flagged for a closer look

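For 6 members the 2 genotypes differed between TAC and sham in opposite directions, with a difference of responses of at least 1.5-fold. With 1 array per group this difference was not tested, and 22 of the 39 members have responses of opposite sign at any size. In the difference of responses 25.7% of all genes passed 1.5-fold in either direction, and 14.1% of those at or above the median level. The error SD of 1 probe in this difference was 0.40, from 50 genes with 2 probes. How many of all genes had responses of opposite sign was not counted. Psmb4, a beta subunit without an active site, was 0.72 between the STIM1KO arrays and -0.57 between the WT arrays, a difference of 1.29 on the log2 scale. The germline subunit Psma8 was 1.47 and -0.12, a difference of 1.58 that rests on low signal. For the base ATPase Psmc6 the values were 0.29 and -0.41, a difference of 0.69, and for the lid subunit Psmd8 0.38 and -0.21, a difference of 0.59. For Psmd8 the difference was 0.43 with each array centred on its median and 0.50 with deposited values, both under 1.5-fold. The alpha subunit Psma2 was -0.27 and 0.32, a difference of -0.59, and the base scaffold Psmd1 -0.29 and 0.39, a difference of -0.68.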

How the results depend on the processing

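The medians over the family lie so near 0 that the scaling sets their sign. With each array centred on its median, the median of all members was 0.0191 between the WT arrays, -0.0224 between the STIM1KO arrays, -0.0152 between the TAC arrays and, for the difference of responses, -0.0736. That of the regulatory particle was -0.0224, -0.0411 and -0.0736 in the last 3 of these, and that of the constitutive core -0.0679 in the difference of responses. As deposited, the median of all members was 0.05 between the WT arrays, -0.0102 between the TAC arrays and, for the difference of responses, -0.0034, that of the constitutive core 0.1001 between the WT arrays, and that of the regulatory particle -0.0361 between the TAC arrays. Centring gave 2 members lower at 1.5-fold between the STIM1KO arrays and 4 between the TAC arrays (Psma1, Psma2, Psma7 and Psmd2), and deposited values gave 3 between the TAC arrays. At 2-fold, 2 members were higher and 0 lower between the STIM1KO arrays, 2 were higher between the TAC arrays, and 3 higher and 0 lower for the difference of responses. Under both scalings Psmb7 and Psmd8 no longer passed 1.5-fold in the difference of responses, at 0.51 and 0.43 when centred. The cause of these shifts was not tested. The mean over probes changed nothing, since each member has 1 probe, and the offset left every count of members as it was. The filter at the median level removed Psma8, leaving 3, 3 and 5 members higher between the STIM1KO arrays, the TAC arrays and for the difference of responses. Adding the older symbols gave 5 higher between the TAC arrays and 7 for the difference of responses. No replicate could be left out with 1 array per group. No paired analysis was possible because each group holds 1 array. Low signal limits Psma8, whose difference between the STIM1KO arrays was 0.84 with the offset.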

Other observations

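The listed ubiquitin ligases, of which only some are known for marking sarcomere proteins for the proteasome, were all measured (14 of 14). Between the STIM1KO arrays 2 were higher at 1.5-fold and 0 lower (14.3%, against 22.9% of all genes in either direction). Between the TAC arrays the counts were 2 and 0 (14.3%, against 22.8%). The 2 were Fbxo32 and Itch, and Itch rests on low signal, at 3.10 on STIM1KO TAC and 1.83 on WT TAC. Between the sham arrays 2 were higher, Nedd4 at 0.66 and Fbxo40 at 0.59, and 1 lower, Trim63 at -0.64 (21.4%, against 11.7%). Between the WT arrays 0 were higher and 1 lower (7.14%, against 9.72%), Itch, which was dim at 1.83 to 4.05. Fbxo32, which encodes atrogin-1, had 86.7 on STIM1KO TAC, 47.0 on STIM1KO sham, 41.6 on WT TAC and 57.2 on WT sham. STIM1KO TAC was the highest and WT TAC the lowest array. The log2 difference was 0.88 between the STIM1KO arrays, -0.46 between the WT arrays and 1.06 between the TAC arrays. Trim63, which encodes MuRF1, had 19.3 on STIM1KO TAC, 18.9 on STIM1KO sham, 24.3 on WT TAC and 29.5 on WT sham, so that both STIM1KO arrays were below both WT arrays. Trim32, another sarcomere ligase, differed by 0.59 between the STIM1KO arrays. Of 11 genes for ubiquitin, its activation and its shuttles, 6 were measured, and 0 passed 1.5-fold in any comparison. Of all genes, 9.72% to 25.7% passed per comparison, so a count of 0 among 6 genes says little.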
